A study of Drosophila melanogaster with 24 samples.

Results

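The sites compared here are those of Su(Hw) and Mod(mdg4) in Kc167 cells depleted of Isha. They are 4711 Su(Hw) peaks and 1091 Mod(mdg4) peaks on the main chromosome arms, out of 34747 peaks in the 8 lists of the series. A Su(Hw) peak was counted as carrying Mod(mdg4) when the peaks of the knockdown lists overlapped by at least 1 bp. This parted the Su(Hw) peaks into 1044 with Mod(mdg4) and 3667 without it. Kc167 is a female Drosophila line of embryonic origin, and all libraries came from it. For knockdown, 12 µg of dsRNA targeting Isha was introduced by nucleofection and the cells were kept for 5 days at 25 °C. The cells set beside them are labelled mock. Chromatin immunoprecipitation and sequencing (ChIP-seq) used a guinea pig antiserum for Su(Hw) and a rabbit antiserum for the 67.2 isoform of Mod(mdg4), with 2 libraries per antibody and treatment, while the Isha libraries of a treatment were made with different rabbit antisera. The labels do not state separate cultures, and cell identity cannot be checked from lists of binding sites. Each antibody and treatment is represented by 1 list of positions without scores, so there is no replicate spread, no p-value is given, and depth is unknown. The 95% intervals, Wilson for shares and Newcombe for differences, cover counting of peaks only, and neighbouring peaks are not independent. Positions are on build dm6 and counted from 1.

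Su(Hw) is a DNA-binding zinc finger protein that recognises the insulator of the gypsy retrotransposon and many sites of the fly genome that are unrelated to gypsy. Mod(mdg4)67.2 is a BTB-domain protein without a known binding sequence of its own at these sites. It is brought to the gypsy insulator by Su(Hw), where CP190, another BTB protein, joins them. Insulators limit the action of enhancers on promoters, and many Su(Hw) sites lack one or both partners. Isha binds su(Hw) mRNA according to the series title, and the design text asks whether the association of the insulator factors depends on Isha. The list of Isha itself held 4735 peaks in mock cells and 932 after knockdown. Since depth is unknown, list length alone does not measure the loss of Isha.

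Nearly all Mod(mdg4) lay on Su(Hw) in the depleted cells, while most Su(Hw) sites had no Mod(mdg4). Of the 1091 Mod(mdg4) peaks, 1084 (99.4%, 98.7 to 99.7%) overlapped Su(Hw). Placed everywhere on the same arm with their widths kept, these peaks would have met Su(Hw) in 7.87% of cases, and the measured share was 12.6 times that mean. In the other direction 22.2% of Su(Hw) peaks (21.0 to 23.4%) carried Mod(mdg4), against 1.82% on average over all placements, a ratio of 12.2. This 22.2% is the background for the shares given below. Where each peak had to cover 50% of the other, the shares were 46.0% and 10.7%. CP190 was also present at 1086 of the Mod(mdg4) peaks (99.5%, 98.9 to 99.8%), against 13.5% for placement. Residual Isha overlapped only 31 of them (2.84%, 2.01 to 4.00%), against 1.92%.

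The asymmetry was close to that of mock cells. There 98.0% of 1305 Mod(mdg4) peaks overlapped Su(Hw) and 24.7% of 4900 Su(Hw) peaks overlapped Mod(mdg4). The knockdown share was 2.57 points lower for Su(Hw) peaks with Mod(mdg4) (0.879 to 4.26 points lower) and 1.35 points higher for Mod(mdg4) peaks with Su(Hw) (0.427 to 2.32 points higher). Both lists were shorter after knockdown, and the part of list length in these differences was not tested.

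The 7 Mod(mdg4) peaks without Su(Hw) were few enough to name. The widest, 1605 bp on 2L (22280645 to 22282249), had its midpoint 23187 bp from Tif-IA, a gene for a factor of ribosomal RNA synthesis. It had CP190 and Isha in both treatments and had Su(Hw) in mock cells only. A peak on 3R (18242004 to 18242765) lay 147 bp from 14-3-3epsilon, which encodes a phosphoserine-binding adaptor, and a peak on 3L (3198162 to 3198701) lay inside CG32276. Both of these had CP190 in the 2 treatments and Isha in mock cells, the first kept Isha after knockdown, and neither had Su(Hw) in mock cells. The others lay inside Myo81F and inside pnt, an ETS factor gene, and 14459 bp from hry (hairy, a segmentation gene) and 74834 bp from CG40228. These 4 had no CP190 in either treatment, and their widths ran from 436 to 591 bp. Only the peak near Tif-IA had a Mod(mdg4) counterpart in mock cells.

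Mod(mdg4) sat inside the Su(Hw) peak and near its middle. The 1084 overlaps were 1084 separate pairs, since no Mod(mdg4) peak touched more than 1 Su(Hw) peak, and 1066 of the Mod(mdg4) peaks (98.3%) lay wholly within their Su(Hw) peak. The midpoints were a median of 105.5 bp apart, with middle quartiles of 47 to 206 bp, and 871 pairs were within 250 bp. The median width was 789.5 bp for these Mod(mdg4) peaks. In a pair the Mod(mdg4) peak was 0.479 times as wide as the Su(Hw) peak in the median, with quartiles of 0.364 and 0.608. A single Mod(mdg4) peak was found in 1007 of the Su(Hw) peaks, a pair of them in 34, and 3 of them in 3. The Su(Hw) peaks with more than 1 Mod(mdg4) peak had a median width of 3738 bp, against 1621 bp for those with 1.

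Su(Hw) peaks with Mod(mdg4) were wider. Their median width was 1644 bp (quartiles 1397 and 1974 bp), against 1212 bp (852 and 1631 bp) without it. Among the narrowest of 4 equal width classes, 285 to 944 bp, 18 of 1179 peaks had Mod(mdg4) (1.53%). The share rose to 16.5% in the next class, to 32.9% in the class from 1332 to 1737 bp and to 37.8% (35.1 to 40.6%) in the widest. With 10 classes the rise took place below 1647 bp, from 1.06% in the narrowest class to 35.8% in the seventh. The last 4 classes held between 33.9% and 40.8%. Most of the widest peaks still had no Mod(mdg4) peak. The difference of the medians was 432 bp, and 118.5 bp with sharing at 50% of both peaks. The lists hold no peak height, so width is the only size available, and the comparisons of CP190, Isha, gene ends, neighbours and mock state were repeated within width classes.

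**Figure D1:**
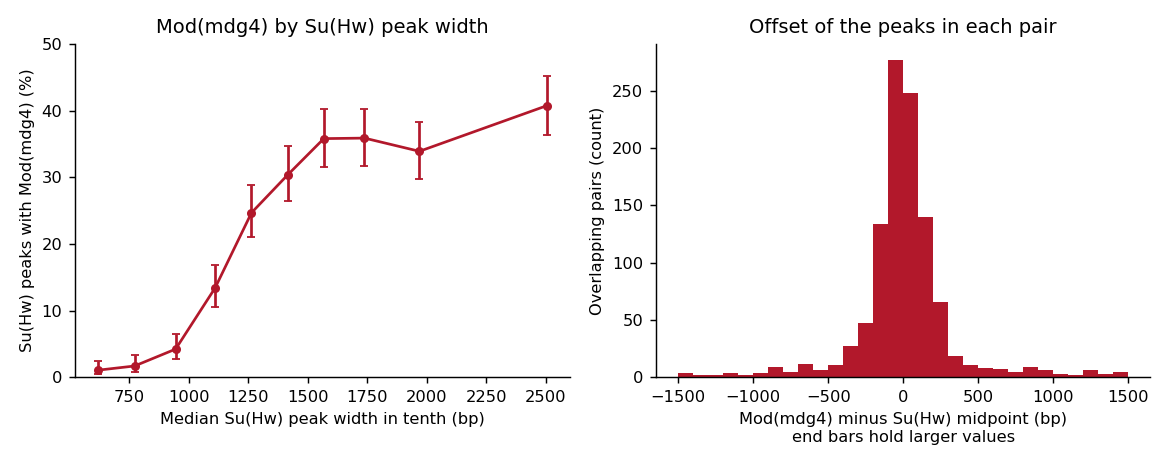
Left, the share of knockdown Su(Hw) peaks with Mod(mdg4) in 10 classes of Su(Hw) peak width (points at the median width in bp, bars 95% Wilson intervals), which rises from 1.06% to 35.8% by the seventh class. Right, the number of the 1084 overlapping pairs by the distance in bp from the Su(Hw) midpoint to the Mod(mdg4) midpoint, with values beyond 1500 bp placed in the end bars. Most pairs lie within 250 bp of 0.

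CP190 marked every Su(Hw) peak with Mod(mdg4) but 1. It was present at 1043 of 1044 peaks with Mod(mdg4) (99.9%, 99.5 to 100%) and at 2613 of 3667 peaks without it (71.3%), a difference of 28.6 points (27.1 to 30.1). In the narrowest width class the shares were 18 of 18 and 53.3%, and in the widest they were 445 of 445 and 87.6%, so the difference narrowed from 46.7 to 12.4 points. The mock CP190 list gave the same picture, with 1043 of 1044 peaks against 71.8%. Among the Su(Hw) peaks that had CP190, those without Mod(mdg4) remained the larger class, with 2613 peaks against 1043.

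Isha was rare in both classes, and the excess of residual Isha at peaks with Mod(mdg4) rested on sites found in all 8 lists. The 61 Su(Hw) peaks with residual Isha were divided into 30 with Mod(mdg4) (2.87%, 2.02 to 4.07%) and 31 without it (0.845%), a difference of 2.03 points (1.11 to 3.25). Of the 30, 24 are sites found in all 8 lists, which carry Mod(mdg4) and Isha by that definition. Without these sites the counts leave no excess of residual Isha at peaks with Mod(mdg4). No interval was computed without them. Isha had been called in mock cells at 92 of the Su(Hw) peaks with Mod(mdg4) (8.81%, 7.24 to 10.7%) and at 185 without it (5.05%), a difference of 3.77 points (2.02 to 5.75). The 92 also include the 24 sites, and the mock difference was not computed without them. The difference in mock Isha lay above 0 in the narrowest, second and widest width classes. In the third class it was 2.26 points with an interval of -0.103 to 5.17, and the difference in residual Isha there was -0.112 points (-1.18 to 1.44). Among the 18 narrowest peaks with Mod(mdg4), 14 had Isha in mock cells (77.8%, 54.8 to 91.0%) and 9 had it after knockdown. Of those 9, 7 are sites found in all 8 lists, which carry Mod(mdg4) and Isha by that definition. Without Mod(mdg4), 9.47% of 1161 peaks in that class had mock Isha. With sharing defined by midpoints within 250 bp, the differences over all peaks were 0.914 points for residual and 1.74 points for mock Isha.

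**Figure D2:**
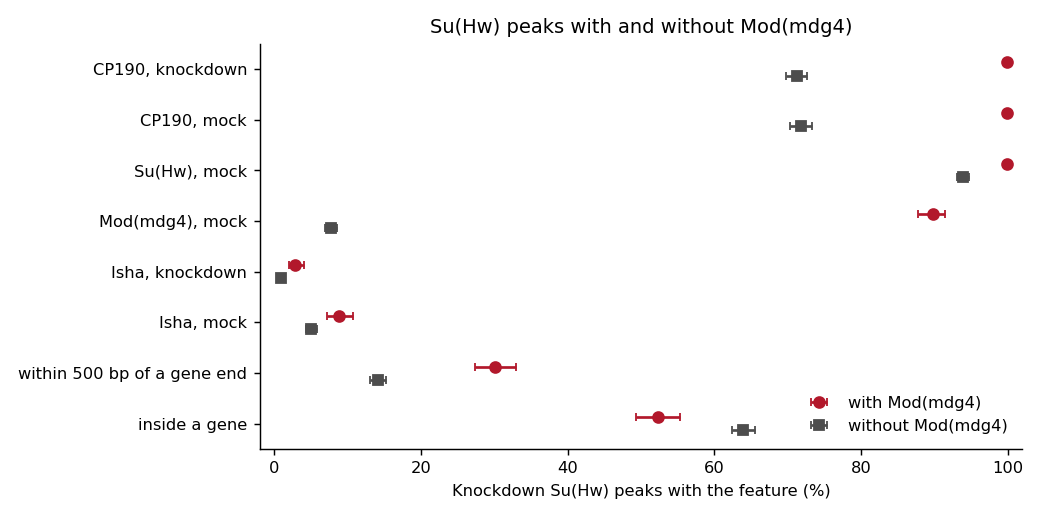
Share (%) of knockdown Su(Hw) peaks with each feature, for 1044 peaks with Mod(mdg4) (red circles) and 3667 without it (grey squares); bars are 95% Wilson intervals. CP190 is at 99.9% against 71.3%, gene ends at 30.1% against 14.1%, and positions inside genes at 52.3% against 63.9%.

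At a few sites Mod(mdg4) filled the Su(Hw) peak. It covered a median of 49.7% of the Su(Hw) peak (quartiles 38.9 and 61.1%), but at 14 peaks it covered 90% or more. Of these 14, 9 had Isha in both treatments, 8 were found in all 8 lists and 11 lay more than 5000 bp from any gene end. They included the pair inside Snap25 on 3L, where 4751 bp (24168965 to 24173715) were covered to 99.4% and 2031 bp (24173950 to 24175980) to 98.6%. A peak inside Myo81F on 3R (2085038 to 2089435) was covered to 99.4%, and peaks near Tim23 (2L, 23331882 to 23332965) and CG41520 (2R, 1808841 to 1810681) to 99.3% and 98.8%. Such a fit was not particular to Mod(mdg4). In Snap25, knockdown CP190 spanned 24168970 to 24173710 and 24173955 to 24175975, nearly the limits of Su(Hw). CP190 also nearly matched Su(Hw) near Pld and CG17580 and in CG42673, but was wider near UQCR-11 and brn. With these 14 peaks left out, the difference in residual Isha was 1.19 points (0.409 to 2.28) and that in mock Isha 3.01 points (1.32 to 4.95). In all, 24 Su(Hw) peaks were present in the 8 lists, and these make up 24 of the 30 Su(Hw) peaks with both Mod(mdg4) and residual Isha. Of these, 12 lay within 1000 bp of a gene end, such as those 6 bp from an end of Drep2, 2 bp from Vdup1 and 131 bp from Rpn13, a proteasome ubiquitin receptor gene. The other 12 lay more than 10000 bp from one, among them sites in ush and pnt.

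Mod(mdg4) was more frequent at Su(Hw) peaks near gene ends. A gene end within 500 bp of the midpoint was found for 314 of the 1044 peaks with Mod(mdg4) (30.1%, 27.4 to 32.9%) and for 516 of the 3667 without it (14.1%), a difference of 16.0 points (13.1 to 19.1). Averaged over all positions of the same arms the share was 15.1% for either class, so peaks without Mod(mdg4) lay close to it. The difference was positive in each width class: 19.5 points in the narrowest (0.774 to 42.1), 34.4 in the next, 20.3 in the third and 11.1 in the widest (7.01 to 15.4). Among the Su(Hw) peaks with CP190 it was 13.2 points (10.1 to 16.4), and with sharing at 50% of both peaks it was 25.5 points. The median distance to the nearest gene end was 1446 bp with Mod(mdg4) and 4635 bp without it. The gene table gives no strand, so starts and ends of transcription were not told apart.

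Read the other way, the share with Mod(mdg4) was lower at most distances farther from a gene end, inside or outside genes. It was 40.3% of the 524 Su(Hw) peaks within 250 bp of a gene end (36.2 to 44.5%), 27.0% between 1000 and 2000 bp, and 13.8% between 5000 and 10000 bp (11.6 to 16.3%). Beyond 50000 bp it was 20.7% of 58 peaks (12.3 to 32.8%). Peaks with Mod(mdg4) lay inside a gene in 52.3% of cases (49.3 to 55.3%), against 63.9% without it and 67.4% to 67.5% over all positions. Between genes, the share was larger in short gaps. A midpoint in a gap of up to 1000 bp always lies within 500 bp of a gene end, so this comparison is not separate from that of gene ends. Mod(mdg4) was at 78 of 187 Su(Hw) peaks in gaps of up to 1000 bp (41.7%, 34.9 to 48.9%) and at 47.1% of 119 peaks in gaps of 1000 to 2000 bp. In gaps over 20000 bp it was at 103 of 625 (16.5%, 13.8 to 19.6%). The Su(Hw) peaks in the shortest gaps were narrower than those in the longest, with medians of 1144 and 1323 bp. The gaps of 1000 to 2000 bp held Su(Hw) peaks with a median width of 1379 bp, and the part of width in the gap comparison was not tested.

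**Figure D3:**
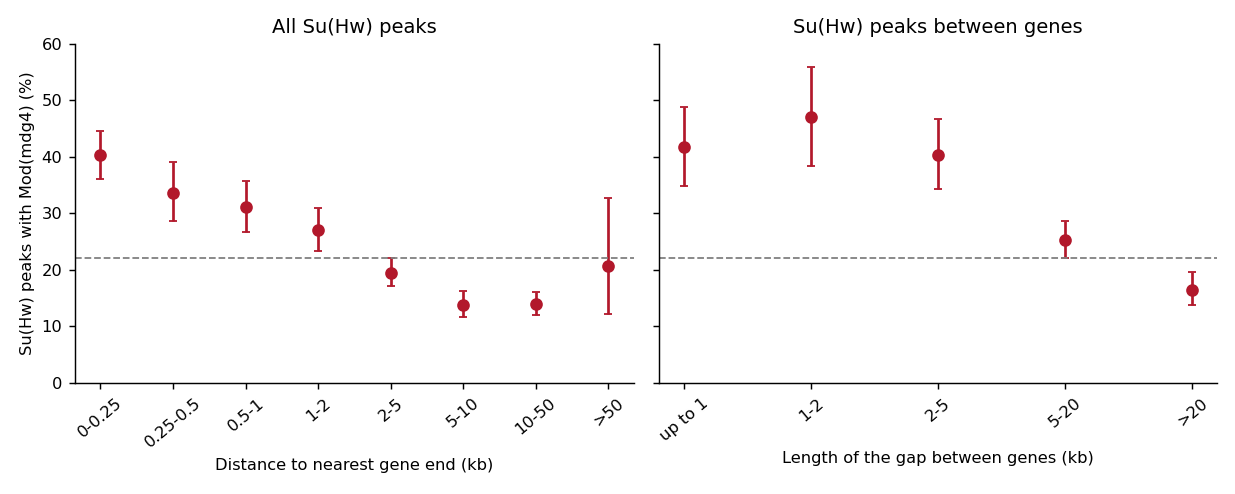
Share (%) of knockdown Su(Hw) peaks with Mod(mdg4) by distance from the peak midpoint to the nearest protein-coding gene end (left, kb) and, for peaks between genes, by length of the gap between genes (right, kb). Points are shares, bars 95% Wilson intervals and the dashed line the share over all Su(Hw) peaks, 22.2%; the share is 40.3% at the nearest distance and 16.5% in the longest gaps.

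The arms resembled each other. Mod(mdg4) was at 161 of 830 Su(Hw) peaks on 2L (19.4%, 16.9 to 22.2%), the lowest share, and at 220 of 917 on 3L (24.0%, 21.3 to 26.9%), with 2R (23.7%), 3R (22.0%) and X (21.6%) between them. Chromosome 4, which is small and largely heterochromatic, held 9 Su(Hw) peaks, of which 3 had Mod(mdg4) (33.3%, 12.1 to 64.6%). The X had the densest sites, with 41.1 Su(Hw) peaks and 8.89 with Mod(mdg4) per Mb, and chromosome 4 the sparsest, with 6.95 and 2.32.

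Sites with Mod(mdg4) had a neighbour of the same kind in a minority of cases, but more often than sites without it had a neighbour with Mod(mdg4). The nearest Su(Hw) neighbour carried Mod(mdg4) for 338 of the 1044 peaks with it (32.4%, 29.6 to 35.3%) and for 669 of the 3667 without it (18.2%, 17.0 to 19.5%), a difference of 14.1 points (11.1 to 17.3). The peaks of such a pair share positions and are counted from both sides. By width class the shares ran from 30.6% to 36.1% for peaks with Mod(mdg4) and from 16.0% to 20.5% for peaks without it. The longest row of consecutive Su(Hw) peaks that all carried Mod(mdg4) had 7 peaks over 49.0 kb on X (9868145 to 9917176, from CG45060 to CG1986), and a row of 6 spanned 177.8 kb on 2R. There were 511 rows of a single peak and 148 of a pair. The larger class without Mod(mdg4) also gave longer rows, which reached 29 peaks on X between CG5966 and CG14441 and again from eag, a potassium channel gene, to CG8117.

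The class of a site was largely the same in mock cells. Of the Su(Hw) peaks with Mod(mdg4) after knockdown, 937 of 1044 (89.8%, 87.8 to 91.4%) overlapped a mock Mod(mdg4) peak, against 282 of 3667 without it (7.69%). A mock Su(Hw) peak was found for 1043 of the first class and for 94.0% of the second. Only 1 of the 222 Su(Hw) peaks that had no mock counterpart carried Mod(mdg4). Among the 4489 Su(Hw) peaks called in both treatments, Mod(mdg4) was present in both at 936, in mock only at 281, in knockdown only at 107 and in neither at 3165. In the narrowest width class, only 12 of 37 peaks with mock Mod(mdg4) kept it (32.4%, 19.6 to 48.5%). In the other width classes 72.7% to 80% kept it. At the 936 constant sites the number of Mod(mdg4) peaks was the same in both treatments at 900, smaller after knockdown at 23 and larger at 13.

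Sites that changed class had wide Su(Hw) peaks and CP190 like constant sites, and differed in Isha. The median Su(Hw) width was 1661 bp with Mod(mdg4) in both treatments, 1612 bp in mock only, 1511 bp in knockdown only and 1224 bp in neither. CP190 after knockdown was at 936 of 936, 280 of 281 and 106 of 107 of the first 3 classes, and at 69.9% of the last. Isha had been called in mock cells at 23 of the 107 sites with Mod(mdg4) in knockdown only (21.5%, 14.8 to 30.2%), at 7.26% of the constant sites, at 8 of the 281 sites with Mod(mdg4) in mock only (2.85%, 1.45 to 5.52%) and at 4.11% of those with none. Gene ends lay within 500 bp of 43.9%, 28.5%, 16.7% and 12.9% of these classes in the same order, from knockdown only, both, mock only to neither.

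Put as rates, Mod(mdg4) stayed at 68 of the 76 Su(Hw) sites with mock Mod(mdg4) and mock Isha (89.5%, 80.6 to 94.6%) and at 868 of 1141 without Isha (76.1%, 73.5 to 78.5%), a difference of 13.4 points (4.19 to 19.1). Among the 68 are the 24 sites found in all 8 lists, which keep Mod(mdg4) by that definition. They were not left out here, so the interval does not show whether sites with Isha keep Mod(mdg4) more often. By width class the difference was 70.3 points in the narrowest, over 11 and 26 sites, where 7 of the 9 kept sites with Isha are among those in all 8 lists, and 13.8 to 15.1 points in the others, where each interval included 0. Mod(mdg4) appeared at 23 of 153 sites with Isha and without mock Mod(mdg4) (15.0%, 10.2 to 21.5%) and at 84 of 3119 without Isha (2.69%, 2.18 to 3.32%). That difference of 12.3 points (7.50 to 18.9) was above 0 in each width class. With 1 list per treatment, a peak that crossed the authors' threshold and a change in binding cannot be told apart.

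Named examples show both kinds of site. The widest Su(Hw) peak with Mod(mdg4) was 8555 bp inside bru3, a gene for an RNA-binding protein of the Bruno family (3L, 13563978 to 13572532). Its Mod(mdg4) peak covered 13567036 to 13567755, and in mock cells it held 3 Mod(mdg4) peaks. Next came hbt (2L, 13315736 to 13321906), PVRAP (3L, 5995926 to 6002045), the neuropeptide gene CCHa1 (3R, 14092088 to 14098186) and a site 259 bp from Dscam3, a cell adhesion gene (3R, 17502925 to 17508928). Ten-m, a teneurin gene of synaptic matching (3L, 22320844 to 22326529), Fur1, a furin protease gene (3R, 25405613 to 25411137), CG30377, a second site in bru3 and CG30089 completed the 10 widest. All 10 had CP190 in both treatments and Mod(mdg4) in mock cells, and none had Isha in either.

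The widest Su(Hw) peak without Mod(mdg4) measured 5678 bp and lay 4221 bp from CG43133 (X, 18122526 to 18128203). Others lay inside DIP-theta, which encodes a synaptic cell surface protein (2L, 5645724 to 5650337), in bru1 (2L, 12227372 to 12231220), in Tl, the Toll receptor gene (3R, 26826840 to 26830380), and near BBS4 and CG14826. All 10 of this class had CP190, and none had Isha in either treatment. At 4 of the 10, Mod(mdg4) had been called in mock cells. These were Pxn, the peroxidasin gene of hemocytes (3L, 2619287 to 2623467), CheB98a (3R, 28802897 to 28806991), X11Lbeta, an adaptor gene (X, 10664133 to 10668057), and rn, a zinc finger gene of limb development (3R, 7282227 to 7285878). These were also the 4 widest of the sites with Mod(mdg4) in mock cells only, followed by tei, CG42795, CG17571, the glutamate receptor gene GluRIA, CG34279 and another site in bru3.

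The widest Su(Hw) peaks with Mod(mdg4) in knockdown cells only lay in CG45002 (X, 16994192 to 16997590), in shakB, a gap junction gene (X, 20864984 to 20868266), and near beat-VII (3R, 26641896 to 26644904). The sites near Nnf1b, a kinetochore gene (2L, 808025 to 810787), near SkpA, a ubiquitin ligase subunit gene (X, 657708 to 660248), and at slo, a calcium-activated potassium channel gene (3R, 24661597 to 24664145), had Isha in mock cells. Only that near Nnf1b kept it. The rest were in CG2993, Fur1, dsx, the sex determination gene, and CG45263. Each of the 10 sites kept Su(Hw) and CP190 from mock to knockdown.

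Genes with many Su(Hw) peaks were long and mostly mixed. A Su(Hw) peak with Mod(mdg4) lay within 1000 bp of 1160 of 13922 protein-coding genes (8.33%), and 1753 more genes (12.6%) had Su(Hw) without Mod(mdg4) only. Of the 1160, 368 had both kinds. Counting only peaks within 500 bp of a gene end, the numbers were 407 and 635. Among the longest genes, those of 5 kb and more, 17.8% had the first kind. The most were at kirre, a muscle founder cell adhesion gene of 394 kb, with 8 Su(Hw) peaks with Mod(mdg4) and 12 without. Flo2 had 5 and 4, spri 5 and 6, bru3 5 and 27, Dys, the dystrophin gene, 4 and 17, and Ten-m 4 and 10. Some long genes had many Su(Hw) peaks and no Mod(mdg4): Ten-a with 16 peaks, Lar, a receptor phosphatase gene, with 14 and Sdc, the syndecan gene, with 13. The short genes CG31809 (5.10 kb) and CG6012 (1.46 kb), next to each other on 2L, each had 3 Su(Hw) peaks within reach and all of these carried Mod(mdg4).

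Among 12 gene groups, ecdysone and neuronal genes stood highest for Su(Hw) with Mod(mdg4), beside 8.33% of all genes. The groups are small, were chosen with earlier results of these data known and differ in gene length, so nothing particular to a group is read from the counts. Of 20 ecdysone receptor and response genes, 8 had Su(Hw) with Mod(mdg4) (40%, 21.9 to 61.3%), 3 had Su(Hw) without it only, namely br, tai and ImpL2, and 9 had none. EcR, the hormone receptor gene, had 2 of each kind. The nuclear receptor gene Eip78C had 1 peak with Mod(mdg4) and none without, and Eip74EF, Eip75B and Hr4 each had 1 with and 4 without. Of the 43 Su(Hw) peaks at these genes 10 carried Mod(mdg4) (23.3%, 13.2 to 37.7%), near the 22.2% of all peaks. Within 500 bp of a gene end there was a site with Mod(mdg4) at 0 of the 20 ecdysone genes and at 2 of the 33 neuronal genes described next. Over all 13922 protein-coding genes the number was 407.

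Neuronal genes had the highest share with Su(Hw) of the 12 groups, most of it without Mod(mdg4). Su(Hw) was within 1000 bp of 26 of 33 genes (78.8%), against 20.9% of all genes, and with Mod(mdg4) at 12 (36.4%, 22.2 to 53.4%). Most are long genes, since 32 of the 33 measure 5 kb and more, as do 15 of the 20 ecdysone genes. Among all genes of that length, 17.8% had Su(Hw) with Mod(mdg4) and 26.1% had only Su(Hw) without it. Of the 88 Su(Hw) peaks at the neuronal genes only 14 had Mod(mdg4) (15.9%, 9.72 to 25.0%). The 14 include the 2 peaks in Snap25 that are found in all 8 lists. Genes with Su(Hw) and no Mod(mdg4) included nSyb, a synaptic vesicle gene (2 peaks), the synaptotagmin gene Syt1 (4), the active zone gene brp (4), the sodium channel gene para (6) and the potassium channel gene Sh (11). Those with Mod(mdg4) included ChAT, the acetylcholine synthesis gene (2 with and 1 without, of which it shares 1 of each with the overlapping transporter gene VAChT), the acetylcholine receptor gene nAChRalpha1 (2 and 7), fne (1 and 1) and Rbp9 (1 and 1), both genes of the ELAV family of RNA-binding proteins. At Rbp9 the Su(Hw) peak spanned 2955096 to 2958892 on 2L and held 2 Mod(mdg4) peaks.

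**Figure D4:**
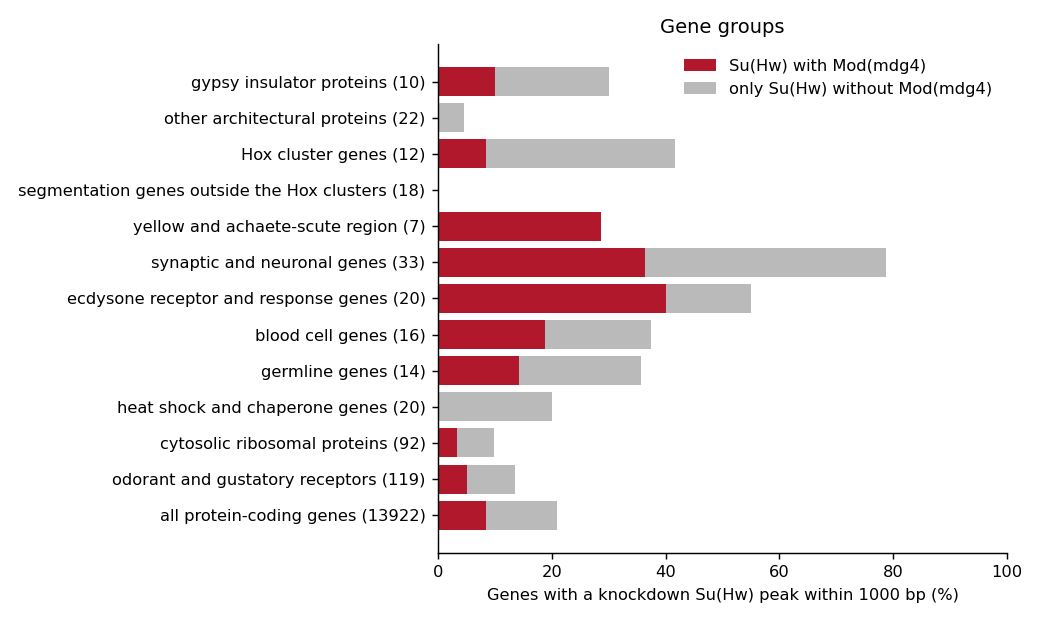
Share (%) of the genes of each group with a knockdown Su(Hw) peak within 1000 bp, parted into genes with at least 1 Su(Hw) peak with Mod(mdg4) (red) and genes with only Su(Hw) peaks without it (grey); the number of genes is in brackets. Ecdysone genes reach 40% and neuronal genes 36.4% in red, against 8.33% of all genes.

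Of 12 Hox cluster genes, Antp had Su(Hw) with Mod(mdg4), which is 8.33% (1.49 to 35.4%) beside 8.33% of all genes. The site was at 6911799 to 6912909 on 3R, beside 3 Su(Hw) peaks without it. The others with Su(Hw), pb, bcd, Ubx and Abd-B, had 1 peak each without Mod(mdg4). None of 18 segmentation genes outside the clusters had Su(Hw) within 1000 bp (Wilson upper bound 17.6%), beside 20.9% of all genes. In the yellow and achaete-scute region, where an endogenous Su(Hw) insulator is known between y and ac, the Su(Hw) peak at the end of y (X, 360930 to 362476) held Mod(mdg4) at 361244 to 362163 and CP190 at 360843 to 362737. All 3 peaks had counterparts in mock cells, and Isha was in neither treatment. The second gene of this group of 7 with such a site was svr, which makes 28.6% (8.22 to 64.1%) beside 8.33% of all genes. The midpoint of the svr site lay 38 bp from its nearest gene, CG17778. The genes ac, sc, l(1)sc, ase and elav had no Su(Hw).

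Among 10 genes of gypsy insulator proteins, Su(Hw) with Mod(mdg4) lay at su(Hw) itself, which is 10% (1.79 to 40.4%) beside 8.33% of all genes. Any Su(Hw) lay at 3 of the 10, beside 20.9% of all genes. There Su(Hw) spanned 14307328 to 14309085 on 3R, Mod(mdg4) 14307593 to 14308821 and CP190 14307268 to 14309417, with mock counterparts for each and Isha in mock cells only. Su(Hw) without Mod(mdg4) lay at shep (8 peaks), an RNA-binding gene, and at rump (1 peak). The rump peak (3R, 9510384 to 9511142), whose midpoint lay inside Ras85D, had no mock Su(Hw) counterpart and overlapped a mock Isha peak. Of 22 other architectural protein genes, Chro alone had Su(Hw) (4.55%, beside 20.9% of all genes), without Mod(mdg4).

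Blood cell genes, of interest because Kc167 cells have hemocyte traits, had Su(Hw) with Mod(mdg4) at 3 of 16 (18.8%, 6.59 to 43.0%), beside 8.33% of all genes. At srp, the GATA factor gene, Su(Hw) was at 16003669 to 16005405 on 3R in knockdown cells with Mod(mdg4) at 16003774 to 16004949, and no mock Mod(mdg4) peak lay there. The GATA cofactor gene ush had 2 with Mod(mdg4), both found in all 8 lists, and 3 without. Pxn had 1 with it and 3 without. Hml, vkg and zfh1 had 1 each without it. Of 14 germline genes, 2 had Su(Hw) with Mod(mdg4) (14.3%, 4.01 to 39.9%), beside 8.33% of all genes. They were bam, a differentiation gene, and pum, a translational repressor gene. The bam site (3R, 25240771 to 25242455), whose midpoint lay inside a neighbouring gene named "to", was present in both treatments with CP190. Among groups of mostly short genes, such sites were at 3 of 92 cytosolic ribosomal protein genes (3.26%, 1.12 to 9.15%), RpS21, RpLP0 and RpS15Aa, at 6 of 119 odorant and gustatory receptor genes (5.04%, 2.33 to 10.6%), and at 0 of 20 heat shock and chaperone genes (upper bound 16.1%). These intervals include the 4.85% to 5.58% of all genes shorter than 5 kb by length class, and the 8.33% of all genes. The receptor genes with one were Or43a, Or45b, Or47a, Gr59d, Or92a and Gr97a.

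**Figure D5:**
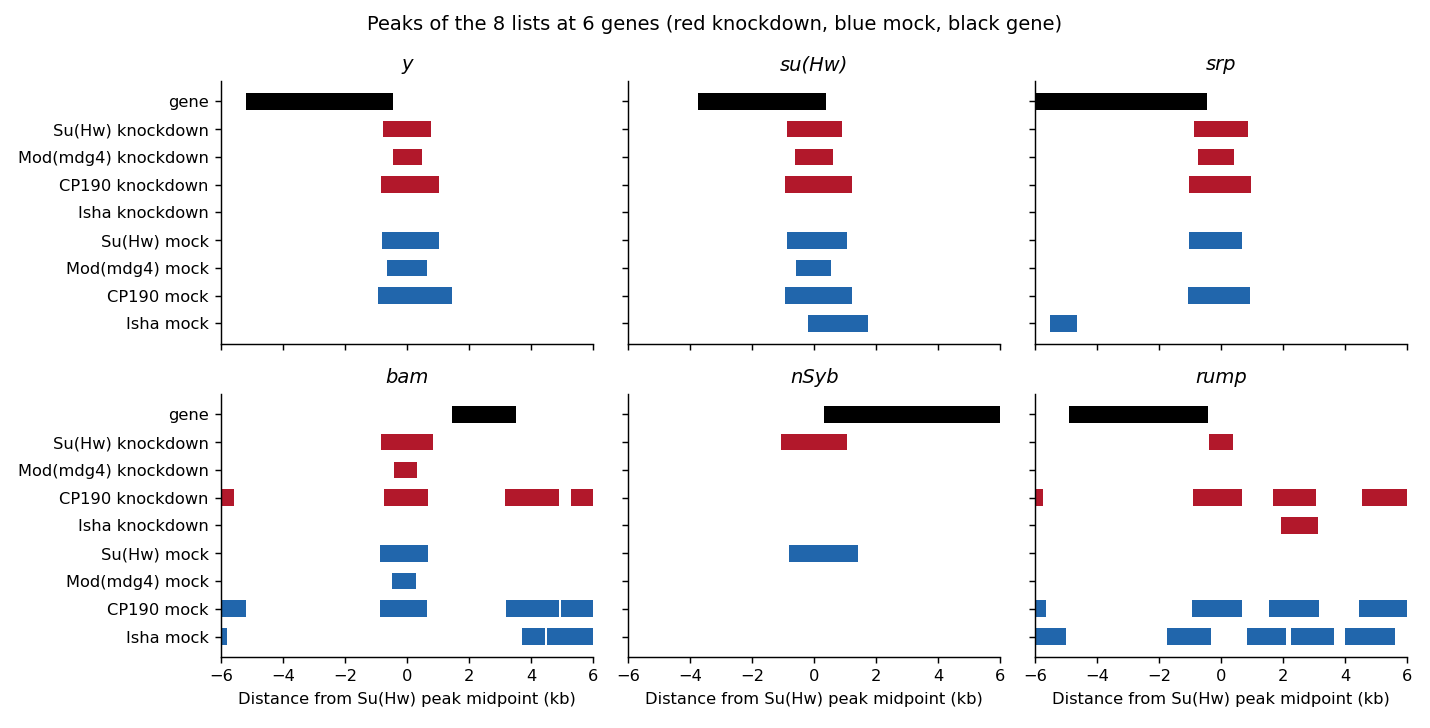
Peaks of the 8 lists within 6 kb of the widest Su(Hw) peak at y, su(Hw), srp, bam, nSyb and rump, as bars by distance from the Su(Hw) peak midpoint (kb): knockdown lists red, mock lists blue, the gene black. Mod(mdg4) lies within the Su(Hw) peak at the first 4 genes, at srp in knockdown cells only, and is absent at nSyb and rump.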

How the data were processed

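Per the labels, the series holds 24 libraries in 12 groups of 2, and the 4 libraries of the classes here are Su(Hw) and Mod(mdg4) in Isha-depleted cells. Reads were handled with Bowtie2 2.4.1, SAMtools 1.9 and Picard 2.22.2 on dm6, per the submitters' processing notes. How peaks were called, at what threshold, and how replicates were combined is not given in the sources used here. Lists deposited by the authors hold chromosome, start and end only. Each list was assigned to a group by its name, and "SwHw" was read as Su(Hw). Mean shares over placements were computed exactly from all start positions on the arm, taken to end at the largest coordinate in the gene table or lists, with no random draws. Genes came from a RefSeq table (Release 6 plus ISO1 MT, 13922 protein-coding genes on the main arms). A peak takes the name of the nearest gene, or of the shortest gene that holds its midpoint. For genes of the lists, any peak within 1000 bp was counted, and it can lie nearer to another gene. All listed symbols matched, 3 of them under a newer name: h as hry, Eip55E as Cth and Hsp67Bb as CG4456. Members and gene lists were chosen with earlier results of these data known. Named peaks are the 10 widest of each class and all 7 Mod(mdg4) peaks without Su(Hw). Named genes are those with most peaks and those of the lists. Peaks covered to 90% or more, rows of neighbours and the sites drawn were picked after values were seen. Sequence motifs were not analysed here. Python 3.11.15, NumPy 2.4.6, pandas 2.3.3 and matplotlib 3.10.9 were used, and the overlap and placement steps were tested on simulated data.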

Additional observations from a re-analysis of the deposited data

How the results depend on the processing

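No difference changed sign under the alternatives given here. Leaving out the 24 sites found in all 8 lists was not among them, and the sign of the residual Isha difference depends on those sites. Only 8 of these sites are among the 14 covered peaks that were left out. Within width classes, the residual Isha difference was -0.112 points in the third class. With 50% reciprocal overlap the share of Mod(mdg4) peaks with Su(Hw) was 46.0% and that of Su(Hw) peaks with Mod(mdg4) 10.7%. The median width difference was then 118.5 bp (432 bp as reported), the CP190 difference 35.4 points, mock Mod(mdg4) at peaks with Mod(mdg4) 86.5%, and the differences near gene ends and inside genes 25.5 and -16.5 points. With midpoints within 250 bp the shares were 79.8% and 18.5%, the width difference 327 bp, the Isha differences 0.914 points (knockdown) and 1.74 points (mock), and mock Mod(mdg4) 84.3%. With the wider peaks of each list only, the shares were 83.6% and 18.8%, and among the wider Su(Hw) peaks the CP190 difference was 15.3 points, that in residual Isha 0.905 points, and mock Mod(mdg4) 91.8% with and 12.9% without Mod(mdg4). By base pairs, 13.5% of Su(Hw) sequence was covered. Gene-end windows of 250 and 1000 bp gave differences of 11.7 and 20.4 points. With peaks within 500 bp of gene ends only, 407 of 13922 genes had Su(Hw) with Mod(mdg4), against 1160 as reported, and 635 had it only without. The ecdysone and neuronal groups fell from 8 and 12 genes to 0 and 2. Adding all sequences or merging peaks within 500 bp left both shares within their intervals. Restricting to peaks with CP190 and leaving out the 14 covered peaks were chosen after seeing the data, and kept each difference they gave within its interval. The planned share of peaks with a sequence motif was not run, since no genome sequence was used here. A threshold on peak height could not be set, and no replicate could be left out, because the lists hold no score and no replicate column. No paired analysis was possible because there is 1 list per antibody and treatment, with no replicate column.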
